A study of Mus musculus with 18 samples.

Results

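The oncofetal liver genes are transcripts that the fetal liver makes in quantity, that the adult liver largely shuts off, and that liver tumours and regenerating livers can switch on again. Afp, H19, Igf2, Gpc3, Dlk1 and Igf2bp3 were followed here by name, through every non-control probe of the arrays whose accession maps to them. Of these 6 genes, 5 had a probe on the array (8 of its 41174 probes), and 4 of them (Afp, Igf2, Gpc3 and Igf2bp3, with 6 probes) were bright enough to be among the 17721 genes tested. Dlk1 was measured but not tested, and H19 was not analysed here because no accession on the array could be matched to it.

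Liver RNA of 6-week-old female mice was hybridised to 18 single-colour Agilent arrays in 6 groups of 3. The Nrf1 CKO livers were Nrf1(dN/-)::Alb-Cre on a mixed background, and their controls were Nrf1(dN/+) livers on a mixed background, which carry the dN allele too. Hepatocytes are where the albumin promoter drives Cre, and the CKO genotype also carries a - allele. Nrf2 KO livers were Nrf2(-/-) and their controls Nrf2(+/+), both C57BL/6. Keap1 KD livers were Keap1(Kd/-) and their controls Keap1(Kd/+), so that all 6 of these mixed-background livers carry a Kd allele. NRF1 and NRF2, encoded by Nfe2l1 and Nfe2l2, are related transcription factors of the stress response, and KEAP1 marks NRF2 for destruction. Whether arrays of a group came from separate mice is not in the labels, so a p-value reflects the spread among these arrays, which may be technical.

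As background, these genes belong to a growth programme of the fetal liver. IGF2 is a secreted growth factor that signals through the IGF1 and insulin receptors, and Igf2 and H19 are neighbouring imprinted genes under joint control. IGF2BP3 is an RNA-binding protein of the fetus that binds Igf2 and other mRNAs. GPC3 is a heparan sulfate proteoglycan of the cell surface, DLK1 is a membrane protein of fetal hepatoblasts related to the Notch ligands, and AFP is an albumin relative that is abundant in fetal plasma and serves as a serum marker of hepatocellular carcinoma.

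The promoters of the pair of members that passed the test in Nrf1 CKO livers are shown because they differ in kind. Both are the 250 bases before the RefSeq start on GRCm38.p6, at chr5:90490464-90490713 (+ strand) for Afp and chr6:49214955-49215204 (- strand) for Igf2bp3, and capitals mark a TATA box match.
Afp: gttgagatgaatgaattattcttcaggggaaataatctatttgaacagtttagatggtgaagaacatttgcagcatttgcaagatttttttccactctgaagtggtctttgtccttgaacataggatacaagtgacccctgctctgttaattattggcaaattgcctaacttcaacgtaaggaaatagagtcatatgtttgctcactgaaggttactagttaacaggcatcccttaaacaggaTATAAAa
Igf2bp3: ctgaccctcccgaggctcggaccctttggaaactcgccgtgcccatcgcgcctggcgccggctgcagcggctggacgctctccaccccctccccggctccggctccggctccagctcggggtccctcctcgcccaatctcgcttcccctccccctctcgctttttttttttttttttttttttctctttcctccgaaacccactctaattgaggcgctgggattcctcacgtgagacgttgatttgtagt
Each RefSeq window, which also takes in the bases just after the start (300 bases in all), was searched on both strands for 2 motifs. The TATA box, searched as TATAAA, occurs in 13.6% of all 32851 promoter windows of that length. The core of the antioxidant response element that NRF1 and NRF2 bind, TGACNNNGC, occurs in 12.4%. The Afp window held the TATA box 7 bases before the annotated start, and it was not found in the Igf2bp3 window. Afp had 3 CG dinucleotides and Igf2bp3 25, against a median of 7 over all windows. The antioxidant response core was in neither. Among the windows of the other members it was found once, starting 2 bases after 1 of the 4 annotated Igf2 starts, and it was not in the windows of Gpc3 or Dlk1. A match is a description of the letters and not evidence of binding.

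Levels are log2 values relative to the array's own 75th percentile signal, so that 0 is a bright probe and -4 is a dim one. They compare groups for 1 probe and are not set against each other between probes. The targeted genes went with their labels. Nfe2l1 was not well above background on any Nrf1 CKO array and was at least 469-fold lower there than in Nrf1 control livers (limma adjusted p = 5.88e-15). Nfe2l2 averaged -4.88 ± 1.5 in Nrf2 KO livers and 3.32 ± 0.20 in Nrf2 control livers (SD, n = 3 each). Keap1 averaged 1.80 ± 0.06 in Keap1 KD livers and 4.19 ± 0.80 in Keap1 control livers. Each array had 50% to 65.0% of its spots well above background, and arrays of 1 group correlated at 0.973 to 0.991 across genes. Nrf1 CKO arrays 1 to 3 shared a slide with control array 3, while Nrf1 control arrays 1 and 2 were on another slide.

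In Nrf1 CKO livers Afp was 3.8-fold and Igf2bp3 2.94-fold above the controls, Igf2 had a smaller difference that did not pass the test, and the interval of the Gpc3 difference included 0. The count was thus 2 of 4 tested members higher, where 18.9% of all tested genes changed and 7.99% rose. Of all calls 42.3% were higher, a share that was 55.1% under quantile normalization and 53.8% under normexp correction. An unadjusted p under 0.05 was reached by 3 of the 4 members and 34.7% of all genes. The median log2 difference of the 4 members was 1.24, beside -0.09 for all tested genes. The test here and below is limma on all 18 arrays, with Benjamini-Hochberg adjustment over the 17721 genes and a threshold of 0.05.

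**Figure D1:**
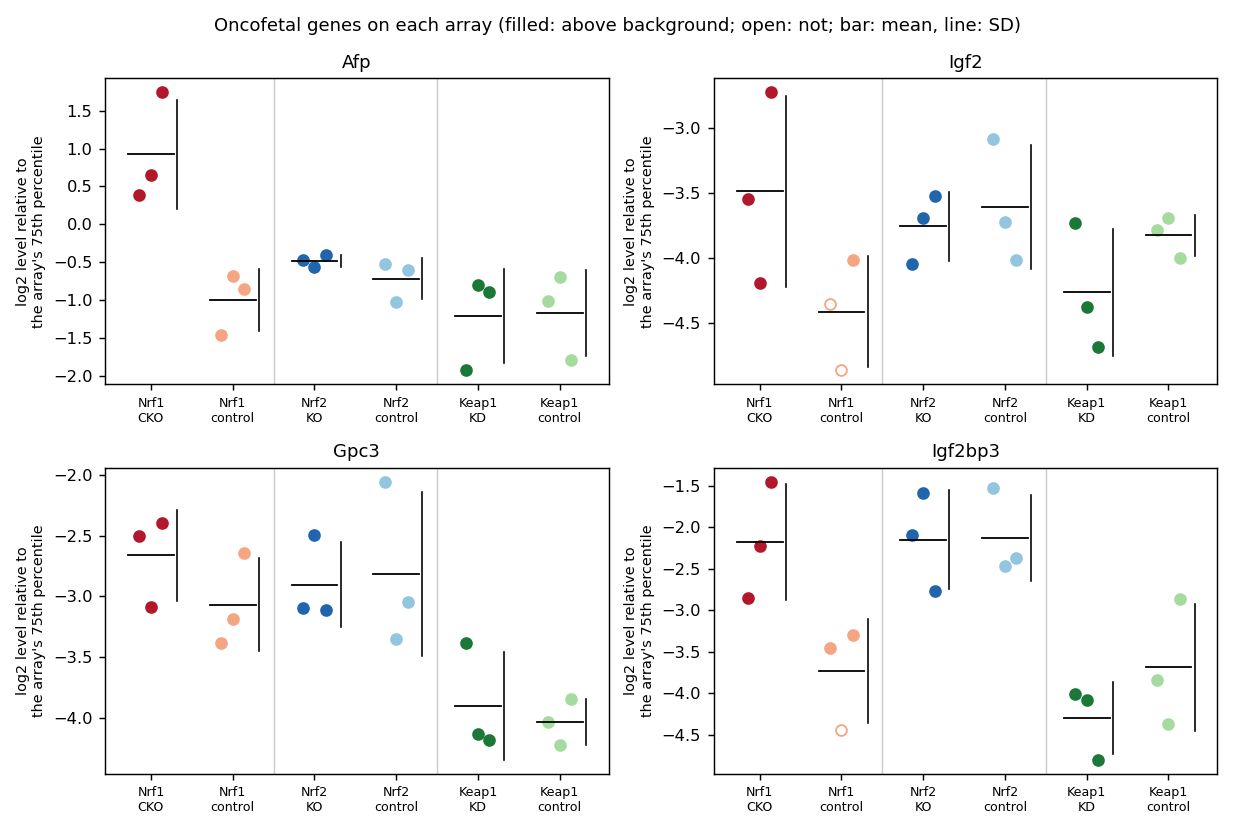
Log2 level of the 4 tested oncofetal genes on each of the 18 arrays, with the 6 groups on the x axis. Filled points are well above background, open points are not, the horizontal bar is the group mean and the vertical line its SD. All 3 Nrf1 CKO arrays lie above all 3 Nrf1 control arrays for Afp and Igf2bp3, and the groups overlap for Igf2 and Gpc3.

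Afp, the fetal plasma protein, stood at 0.38, 0.65 and 1.75 on the Nrf1 CKO arrays, against -1.46, -0.69 and -0.85 on the Nrf1 control arrays. The lowest CKO array was above the highest control array, as was so for 15.3% of all tested genes. The log2 difference was 1.92 (SE 0.38, 95% interval 1.12 to 2.73, limma adjusted p = 0.0046). The probe is printed 10 times on the array, and its spots on 1 array had a median SD of 0.07, far below the spread between arrays of the CKO group (SD 0.72). CKO array 3 was the highest, and without it the difference was 1.51 (adjusted p = 0.0299). On the shared slide, the 3 CKO arrays averaged 0.92 and the lone control array was at -0.85, a difference of 1.78.

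Igf2bp3, the fetal RNA-binding protein, stood at -2.85, -2.23 and -1.45 on the Nrf1 CKO arrays, against -3.45, -4.44 and -3.30 on the Nrf1 control arrays. These groups did not overlap either, although 1 of the 3 control arrays was not well above background. The log2 difference was 1.56 (SE 0.46, 95% interval 0.58 to 2.54, adjusted p = 0.0303). The call rested on single arrays: it was lost without CKO array 3 (1.2, adjusted p = 0.153), CKO array 2 (1.58, 0.0852), control array 2 (1.2, 0.115) or control array 1 (1.70, 0.0659). Within the shared slide the CKO arrays averaged -2.17 and the control array -3.30, a difference of 1.12.

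The array carries 2 further Igf2bp3 probes. A_52_P508974 read -2.87, -2.13 and -1.40 on the Nrf1 CKO arrays, against -4.47, -4.20 and -3.50 on the Nrf1 control arrays, again without overlap. Its log2 difference of 1.92 (SE 0.50) passed the test when every probe was tested on its own (adjusted p = 0.0184). A_52_P271232 was dim, above background on 1 CKO array and on no Nrf1 control array. Its difference was 0.93 (SE 0.56) and did not pass (adjusted p = 0.255).

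**Figure D2:**
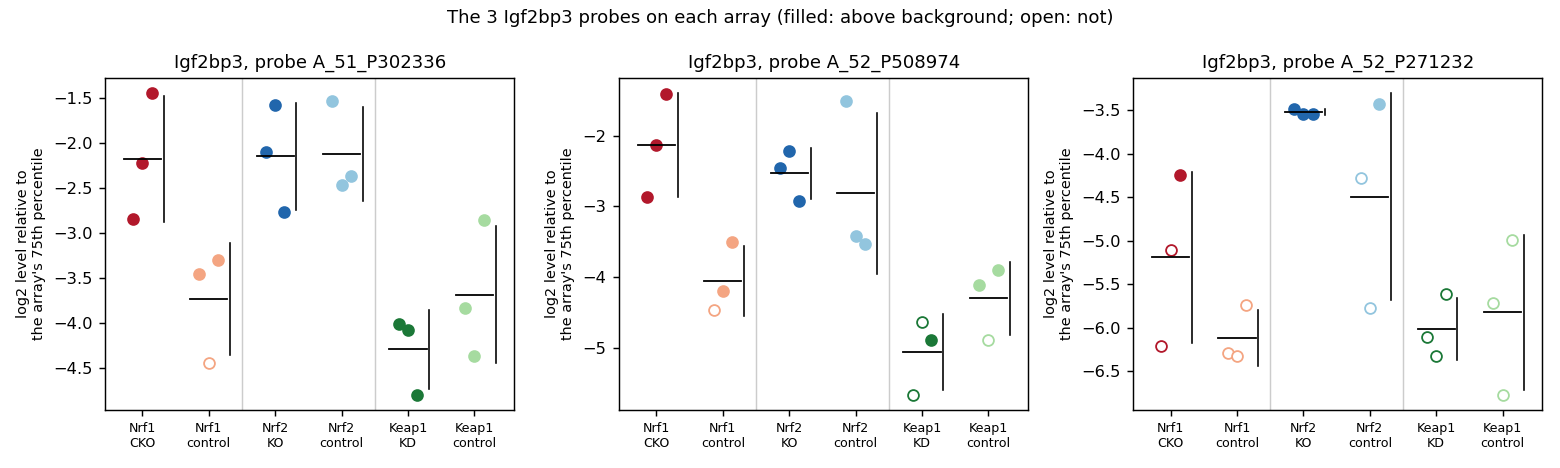
Log2 level of the 3 Igf2bp3 probes on each array, 1 panel per probe, with the groups on the x axis, bars for group means and lines for SDs. Filled points are well above background. The first 2 probes separate Nrf1 CKO from Nrf1 control arrays, and the third is mostly below background outside the Nrf2 line.

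Igf2, the growth factor whose mRNA IGF2BP3 binds, stood at -3.54, -4.19 and -2.72 on the Nrf1 CKO arrays, against -4.36, -4.87 and -4.02 on the Nrf1 control arrays. All 3 CKO arrays but only 1 of 3 control arrays were above background, and the groups overlapped through CKO array 2. The CKO arrays were brighter as a whole, with 57.5% to 60.1% of spots well above background against 52.3% to 54.7% on the Nrf1 control arrays. At nearly the same level, CKO array 2 (-4.19) was above background and control array 1 (-4.36) was not. Whether array brightness sets the detection of Igf2 was not tested. The log2 difference was 0.93 (SE 0.35, 95% interval 0.18 to 1.68, unadjusted p = 0.019, adjusted p = 0.0767), so it did not pass. Without CKO array 2 it did (1.28, adjusted p = 0.0446). A second Igf2 probe, A_51_P516833, was above background on CKO array 3 alone of the 18 and was not tested.

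Gpc3, the cell-surface proteoglycan, stood at -2.50, -3.09 and -2.40 on the Nrf1 CKO arrays, against -3.38, -3.19 and -2.64 on the Nrf1 control arrays. These ranges overlapped. The log2 difference was 0.41 (SE 0.33, 95% interval -0.29 to 1.11, adjusted p = 0.402). On the shared slide it was -0.02, and that of Igf2 was 0.53.

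Dlk1 was not well above background on 17 of the 18 arrays. The exception was Nrf1 CKO array 3, at -4.20, beside -7.08 and -6.58 on the other CKO arrays and -6.48, -6.51 and -5.78 on the Nrf1 control arrays. With 1 such array Dlk1 passed no filter, and its difference was not tested. The same array had the highest level of its group for all 4 tested members, as it had for 27.6% of all tested genes. It was also the brightest of the 18 arrays, with a 75th percentile signal of 8.655 on the log2 scale.

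With the slide as a block, which leaves control array 3 as the only control that bears on the contrast, neither Afp (adjusted p = 0.218) nor Igf2bp3 (adjusted p = 0.47) passed, and the calls over all genes fell to 65, against 3348 without the block. In whole liver, a change in the share of cells that hold a transcript cannot be told apart from a change in RNA per cell.

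None of the 4 tested members passed the test in Nrf2 KO livers, where 0.0621% of all genes were called, and none had an unadjusted p under 0.05 (8.89% of all genes did). Afp stood at -0.47, -0.57 and -0.41 on the Nrf2 KO arrays, against -0.53, -1.03 and -0.60 on the Nrf2 control arrays, a log2 difference of 0.24 (95% interval -0.56 to 1.04, adjusted p = 0.904). Igf2bp3 stood at -2.10, -1.58 and -2.77 on the KO arrays and -1.53, -2.47 and -2.37 on the control arrays. Its difference was -0.03 (95% interval -1.01 to 0.95, adjusted p = 0.989). The 2 other Igf2bp3 probes gave 0.28 and 0.97, with adjusted p of 0.916 and 0.66. The probe at 0.97, A_52_P271232, passed the filter only through the Nrf2 KO group, so its test is not independent of its selection. Igf2 differed by -0.15 (95% interval -0.90 to 0.60, adjusted p = 0.944) and Gpc3 by -0.09 (95% interval -0.79 to 0.62, adjusted p = 0.967). The groups overlapped for all 4 (20.8% of all genes had groups that did not). No slide or scan day held arrays of both Nrf2 groups, so group and slide cannot be told apart within this line.

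Lowering Keap1 likewise called 0 of the 4 members, with 5.52% of all genes called, and 0 had an unadjusted p under 0.05 (16.8% of all genes did). Of the calls over all genes 17.2% were higher, and the share was 49.9% under median scaling. Afp stood at -1.93, -0.81 and -0.90 on the Keap1 KD arrays, against -1.02, -0.70 and -1.80 on the Keap1 control arrays. Each group thus held 1 low array, and the log2 difference was -0.04 (95% interval -0.84 to 0.76, adjusted p = 0.978). Igf2bp3 stood at -4.01, -4.08 and -4.80 on the KD arrays and -3.83, -4.37 and -2.86 on the control arrays, a difference of -0.61 (95% interval -1.59 to 0.37, adjusted p = 0.589). Igf2 differed by -0.44 (95% interval -1.19 to 0.31, adjusted p = 0.622) and Gpc3 by 0.14 (95% interval -0.56 to 0.84, adjusted p = 0.904). The groups overlapped for all 4 (17% of all genes had groups that did not). Between the KD array and the control array of the slide they share, Afp differed by 0.90, Igf2 by -0.69, Gpc3 by -0.34 and Igf2bp3 by -1.94.

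**Figure D3:**
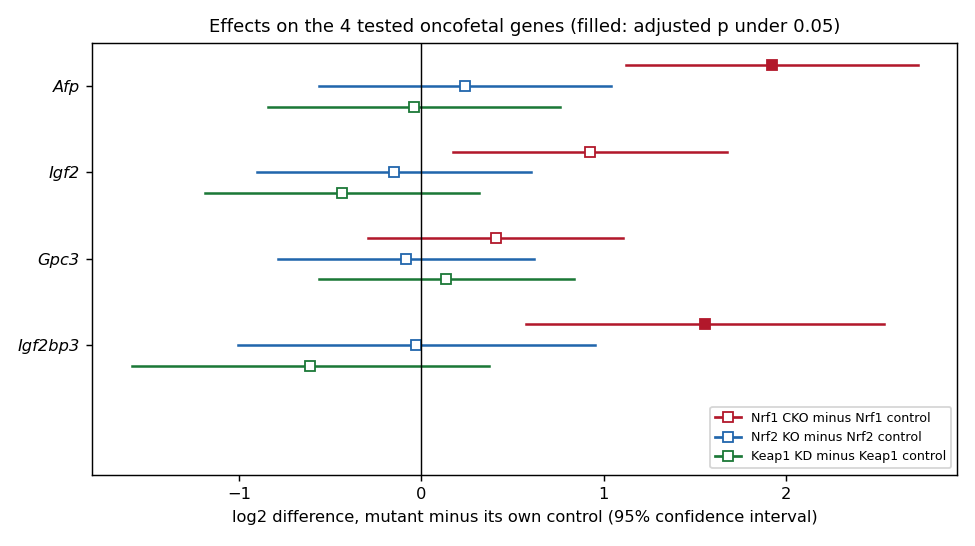
Log2 difference of each mutant from its own control, on the x axis, with its 95% confidence interval, for the 4 tested oncofetal genes. Filled squares have an adjusted p under 0.05. Afp at 1.92 and Igf2bp3 at 1.56 in the Nrf1 line are the filled ones, and every interval of the Nrf2 and Keap1 lines includes 0.

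Whether the effects differed between lines was tested as the difference of 2 mutant effects in the same fit. For Afp, the Nrf1 effect exceeded the Keap1 effect by 1.96 on the log2 scale (SE 0.53, adjusted p = 0.0401). This was the only member called in that contrast, in which 6.92% of all genes were called. Afp exceeded the Nrf2 effect by 1.69 (SE 0.53, adjusted p = 0.0714). Igf2bp3 had differences of 2.17 against the Keap1 effect (SE 0.65, adjusted p = 0.0565) and 1.58 against the Nrf2 effect (SE 0.65, adjusted p = 0.152). For Igf2 the values were 1.36 (adjusted p = 0.0986) and 1.08 (adjusted p = 0.204), and for Gpc3 0.27 (adjusted p = 0.732) and 0.49 (adjusted p = 0.549). No member was called between the Nrf1 and Nrf2 effects, with 5.58% of all genes called, or between the Nrf2 and Keap1 effects, with 3.09%. None of the 4 had an unadjusted p under 0.05 in the last contrast (17.1% of all genes did), where the values ran from -0.22 for Gpc3 to 0.58 for Igf2bp3. In the contrast of Nrf1 and Nrf2 effects the unadjusted p was 0.00629 for Afp, 0.0279 for Igf2bp3 and 0.0476 for Igf2, with 24% of all genes under 0.05. In that of Nrf1 and Keap1 effects the same 3 members were under 0.05, with 27.9% of all genes. The Afp call between the Nrf1 and Keap1 effects was lost under 12 of the 26 alternatives tried. Of these, 7 left out 1 array: Nrf1 CKO array 2 or 3, Nrf1 control array 1 or 2, Keap1 KD array 1, or Keap1 control array 1 or 2. The difference then ran from 1.55 to 2.12 and its adjusted p from 0.0504 to 0.107. It also lost the call under quantile normalization (1.96, adjusted p = 0.0627).

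Across the 6 groups, Afp was highest in Nrf1 CKO livers (0.92 ± 0.72, SD, n = 3 as for all means here), whose range did not overlap that of the next group, Nrf2 KO (-0.48 ± 0.08). The other groups ran through Nrf2 control (-0.72 ± 0.27), Nrf1 control (-1.0 ± 0.41), Keap1 control (-1.17 ± 0.57) and Keap1 KD (-1.21 ± 0.63), each overlapping its neighbour.

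By its brightest probe Igf2bp3 had another order, with its highest means in Nrf2 control (-2.12 ± 0.52), Nrf2 KO (-2.15 ± 0.60) and Nrf1 CKO livers (-2.17 ± 0.70), which overlapped. Keap1 control (-3.69 ± 0.77), Nrf1 control (-3.73 ± 0.62) and Keap1 KD (-4.30 ± 0.44) had lower means. The Nrf1 CKO and Keap1 control ranges nearly met, at -2.846 on Nrf1 CKO array 1 and -2.857 on Keap1 control array 3. The level in Nrf1 CKO livers thus overlapped that of the C57BL/6 Nrf2(+/+) livers. The Nrf2 line is the only C57BL/6 one, so that strain and line cannot be told apart there, and the arrays of the Nrf1 line had slides and a scan day of their own. The Nrf2 and Keap1 lines shared slides. On the slide with all 3 Nrf2 control arrays, Igf2bp3 was at -1.53, -2.47 and -2.37 on these and at -3.83 on Keap1 control array 1. On the other shared slides it was at -1.58 on Nrf2 KO array 2 beside -4.37 on Keap1 control array 2, and at -2.77 on Nrf2 KO array 3 beside -4.01 and -4.08 on Keap1 KD arrays 1 and 2. The order depended on the probe. By A_52_P508974 Nrf1 CKO was highest (-2.135 ± 0.733), then Nrf2 KO (-2.534 ± 0.359) and Nrf2 control (-2.817 ± 1.134). There Nrf2 control arrays 2 and 3 (-3.415 and -3.529) were near Nrf1 control array 3 (-3.502) and above Keap1 control array 1 (-4.119). The dim A_52_P271232 had Nrf2 KO (-3.521) and Nrf2 control (-4.493) above Nrf1 CKO (-5.19).

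Gpc3 was lowest in both groups of the Keap1 line, at -3.90 ± 0.45 in Keap1 KD and -4.04 ± 0.19 in Keap1 control livers. The other 4 groups lay between -2.66 ± 0.38 in Nrf1 CKO and -3.07 ± 0.38 in Nrf1 control livers. The Nrf1 control and Keap1 KD ranges nearly met, at -3.383 on Nrf1 control array 1 and -3.389 on Keap1 KD array 1. The means of Igf2 ran from -3.49 ± 0.74 in Nrf1 CKO to -4.41 ± 0.43 in Nrf1 control livers, and each group overlapped the next.

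The genes most like each member over the 18 arrays were listed by Pearson correlation, as a description, since the arrays share scaling, slides and groups. The Nrf1 CKO arrays took part in this choice, so where a member rose there, a rise of its like genes is in part built in. Afp was closest to Efemp2 (0.952), which encodes fibulin-4 of elastic fibres, Cygb (0.933), which encodes cytoglobin of stellate cells, and Mfap2 (0.93), which encodes a microfibril glycoprotein. All of these rose in Nrf1 CKO livers, by 0.98, 1.37 and 2.41 on the log2 scale. The correlations were 0.888, 0.802 and 0.898 over the 15 arrays other than Nrf1 CKO. With the other members, which were not picked by correlation, Afp had 0.452 for Igf2, 0.506 for Gpc3 and 0.505 for Igf2bp3. Over those 15 arrays the values were 0.119, 0.347 and 0.312.

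**Figure D4:**
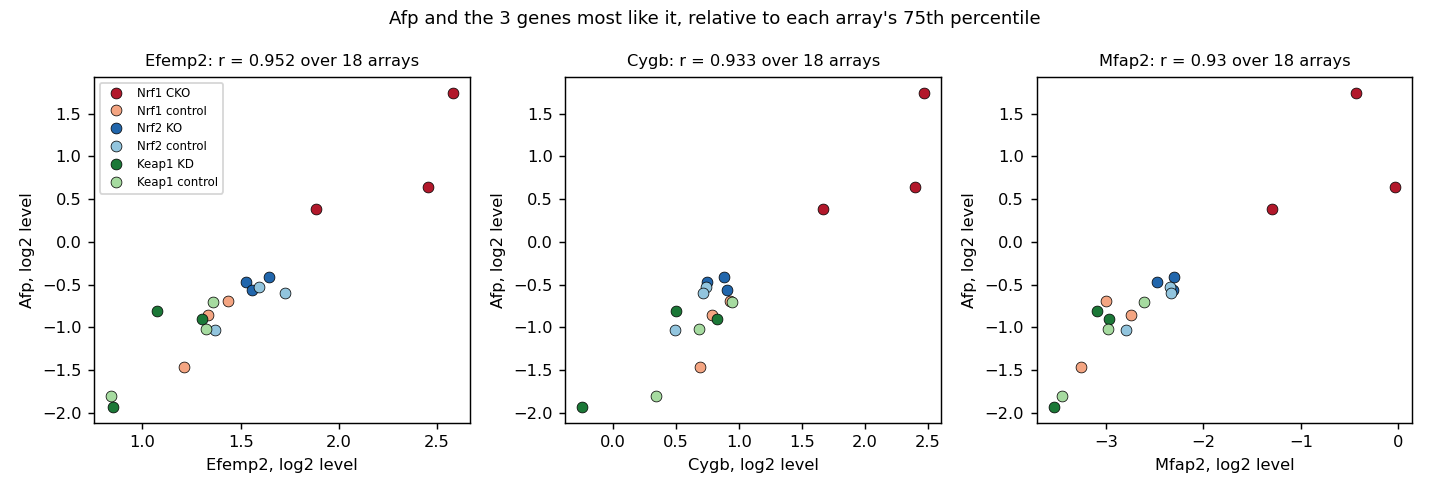
Afp level on the y axis against Efemp2, Cygb and Mfap2 on the x axes, 1 point per array, as log2 values relative to the array's 75th percentile. The 3 Nrf1 CKO arrays lie at the top right, and the other 15 arrays run along the same direction below them.

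Gpc3 was closest to Pcnx2 (0.857), Cpe (0.855), which encodes carboxypeptidase E, and Sulf1 (0.835), which encodes an extracellular sulfatase. None of these was called in Nrf1 CKO livers, and their log2 differences there were -0.07, 0.22 and -0.08. Igf2bp3 was closest to Spc25 (0.844), a kinetochore gene, Tnfaip8 (0.827) and Ptgis (0.824), which encodes prostacyclin synthase. Tnfaip8 (0.85) and Ptgis (1.65) rose in Nrf1 CKO livers, while Spc25 differed by 0.85 and did not pass. Igf2 had the weakest likenesses, to Guca2a (0.722), Tex44 (0.719) and S100g (0.683), none of which was called there. Gpc3 and Igf2bp3 were the most alike pair of members, at 0.766 over 18 arrays and 0.755 without the Nrf1 CKO arrays.

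The relatives of Afp were not called higher. Afp lies between Alb and Afm in the albumin gene cluster. In Nrf1 CKO livers Afm, the vitamin E-binding afamin, fell by 0.72 (adjusted p = 0.01), and Gc, the vitamin D-binding protein, fell by 0.47 (adjusted p = 0.0311). The Gc difference was 0.06 under quantile normalization and 0.03 under normexp correction, where 0 of the 3 were called, Afm at -0.23 and -0.26, and the list's median of -0.47 became 0.06 and 0.03. Under median scaling Gc was not called either (-0.57, adjusted p = 0.0649). Albumin itself averaged 9.79 ± 0.21 in Nrf1 CKO and 10.26 ± 0.08 in Nrf1 control livers, a log2 difference of -0.47 that did not pass (adjusted p = 0.0781) and was 0.06 under quantile normalization. None of the 3 was called in the other lines.

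Among the glypicans, Gpc1 passed the test and Gpc3 did not. Gpc1 was higher by 1.43 in Nrf1 CKO (adjusted p = 0.0127) and by 1.86 in Keap1 KD livers (adjusted p = 0.00705), while it differed by -0.46 in Nrf2 KO livers (adjusted p = 0.773). Gpc4, the neighbour of Gpc3 on the X chromosome, had log2 differences of -0.12 in Nrf1 CKO, -0.03 in Nrf2 KO and -0.24 in Keap1 KD livers. Gpc6 had -0.86 (adjusted p = 0.114), 0.55 and -0.21 in the same order, and none passed. The Gpc4 difference in Nrf1 CKO livers was 0.09 under quantile normalization. Gpc2 and Gpc5 were not tested. With the slide as a block the Gpc1 call was lost in Nrf1 CKO livers (1.59) and in Keap1 KD livers (1.83, adjusted p = 0.208). Without CKO array 3 no glypican was called in the Nrf1 line.

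Igf2bp2, the relative of Igf2bp3 that persists in adult tissues, rose by 1.38 in Nrf1 CKO livers (SE 0.29, adjusted p = 0.00659). It was the 1 gene called of 9 tested in the list around let-7, a family of small RNAs that repress fetal genes, and LIN28, which blocks their maturation. Over all tested genes 18.9% were called in Nrf1 CKO livers. With the slide as a block Igf2bp2 lost its call (1.29). Lin28a, Lin28b, Igf2bp1 and Trim71 were not tested. Hmga2, a chromatin protein of the same list, was not well above background on any Keap1 KD array and was at least 1.37-fold lower there (adjusted p = 0.0448). That call was lost under quantile normalization (adjusted p = 0.362), median scaling (0.138) and normexp correction (0.358). Hmga2 passed the filter only through the Keap1 control group, so its test is not independent of its selection. In Nrf1 CKO livers it was above background on 2 arrays, and on none of the Nrf1 control arrays, and did not pass (adjusted p = 0.234).

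**Figure D5:**
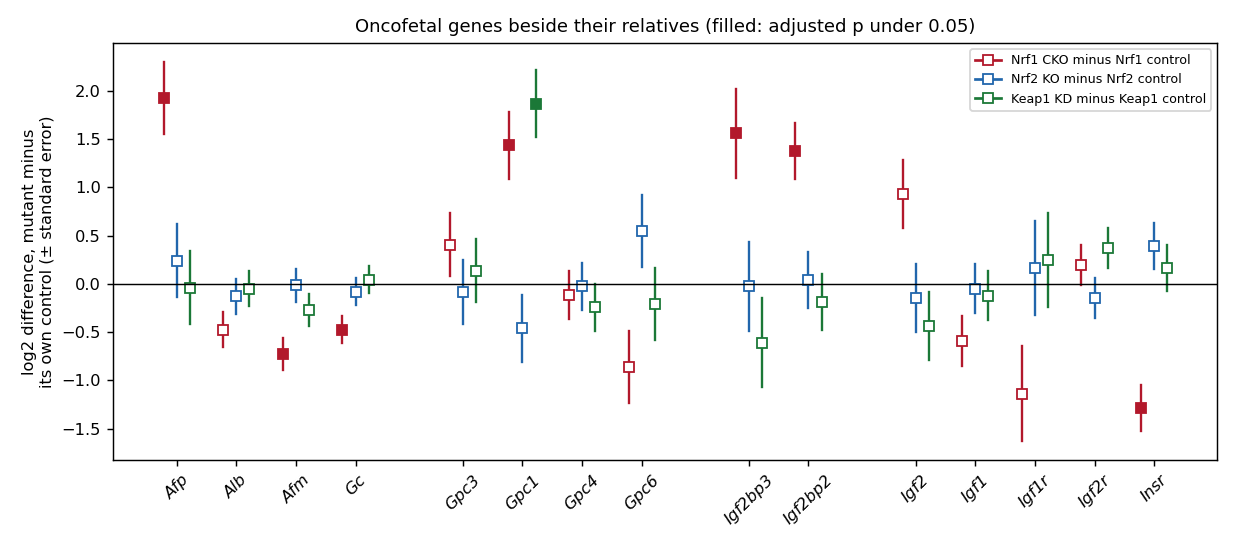
Log2 difference of each mutant from its own control, on the y axis, with its standard error, for Afp, Gpc3, Igf2bp3 and Igf2, each beside genes of its family or pathway. Filled squares have an adjusted p under 0.05. Afm and Gc lie below 0 beside Afp, Gpc1 is filled in the Nrf1 and Keap1 lines, and Igf2bp2 and Igf2bp3 are both filled in the Nrf1 line.

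Of 13 tested genes of the IGF axis, 3 fell and 0 rose in Nrf1 CKO livers: Insr, the insulin receptor, by 1.29, Igfbp3, a carrier of IGFs, by 1.0, and Ghr, the growth hormone receptor, by 0.92. The list's median was -0.59, beside -0.09 for all genes, of which 18.9% were called. Igf1 (log2 difference -0.59, adjusted p = 0.116), Igf1r (-1.14, 0.113) and the scavenging receptor Igf2r (0.19, 0.543) did not pass. Under quantile normalization 1 gene of this list was called higher and 3 lower, and under normexp correction 1 and 4. Without CKO array 3, 1 of the 13 was called, and it was lower. The axis had 0 calls in Nrf2 KO and in Keap1 KD livers.

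Regulators known for Afp, H19 and Gpc3 in mouse liver gave 2 calls among 16 tested in Nrf1 CKO livers, both lower, with a median of -0.24. Over all tested genes 18.9% were called there. Cebpa fell by 0.84 (adjusted p = 0.00776) and Cebpb by 1.06 (adjusted p = 0.0276), and both encode C/EBP factors that act on liver promoters. Cebpb lost its call under normexp correction (-0.80, adjusted p = 0.0513). The postnatal repressors of Afp were not called: Zhx2 differed by -0.50 (adjusted p = 0.343), with 2 of 3 arrays above background in each group, and Zbtb20 by -0.26 (adjusted p = 0.36). Zhx1 differed by -0.34 and Zhx3 by -0.15. The activators gave log2 differences of -0.59 for Foxa2, 0.25 for Foxa1, -0.26 for Foxa3, -0.23 for Hnf4a, -0.12 for Onecut1 and -0.09 for Nr5a2. Ctcf (-0.08), Nr0b2 (-0.67), Nr2f2 (0.45) and Sall4 (0.21) did not pass either, and Nr2f1 was not tested. Without CKO array 3 none of the 16 was called. None of the 16 was called in Nrf2 KO or Keap1 KD livers, where Zhx2 differed by -0.17 in the Keap1 line (adjusted p = 0.889). In the Nrf2 line Zhx2 was above background on all 3 KO arrays and on no control array, at least 1.3-fold higher with an adjusted p of 0.511.

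Other genes of the fetal liver and of hepatocellular carcinoma gave 8 higher and 0 lower of 22, with a median of 1.05, in Nrf1 CKO livers, where 7.99% of all genes were called higher. The largest were Ly6d (5.22), Akr1c18 (4.43), a hydroxysteroid dehydrogenase, Spink1 (3.77), a trypsin inhibitor raised in liver cancer, and Lgr5 (1.47), a receptor of WNT-responsive progenitors. Without CKO array 3, 4 of the 22 were called, and Lgr5 lost its call under median scaling (adjusted p = 0.0716) and normexp correction (0.0586). With the slide as a block the Nrf1 CKO calls of this list were lost, with Ly6d at 4.80, Akr1c18 at 4.08, Spink1 at 3.77 and Lgr5 at 1.845. The list was chosen with earlier results of these data known, so its count is not an independent test. In Keap1 KD livers Tff3 (-4.09) and Akr1c18 (-2.56) fell, calls that were lost under normexp correction (adjusted p = 0.117 and 0.15), and none of the 22 was called in Nrf2 KO livers.

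Imprinted genes of the network around Igf2 and H19 gave 3 higher and 1 lower of 17, with a median of 0.42, in Nrf1 CKO livers, where 18.9% of all genes were called. The counts were 1 higher and 1 lower under median scaling and 4 and 1 under quantile normalization. Phlda2 rose by 3.15 (adjusted p = 0.00353), above background on all 3 CKO and on 1 of 3 control arrays. Grb10, an adaptor that damps insulin receptor signals, rose by 0.78 and Sgce by 0.55, while the amino acid carrier Slc38a4 fell by 1.42. Under median scaling Grb10 (adjusted p = 0.0801) and Sgce (0.112) lost their calls. Meg3, which lies near Dlk1 in the same imprinted region, differed by 0.64 (adjusted p = 0.478), and by -0.13 without CKO array 3. Without that array 1 of the 17 was called, and it was higher. Kcnq1ot1 fell by 1.57 in Keap1 KD livers, the only call of this list outside the Nrf1 line. With the slide as a block Kcnq1ot1 lost that call (-1.71, adjusted p = 0.112), and the Nrf1 CKO calls of this list were lost too.

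In the pathway of Notch, to whose ligands DLK1 is related, 1 gene rose and 2 fell of 12, with a median of 0.22, in Nrf1 CKO livers, where 18.9% of all genes were called. The ligands Dll1 and Dll4 fell by 1.22 and 0.76, and the target Hey1 rose by 1.07 (adjusted p = 0.0342). Hey1 lost its call under quantile normalization (1.02, adjusted p = 0.0512), median scaling (0.97, 0.0755) and normexp correction (0.54, 0.0637), and Dll4 under the last (-0.33, 0.0566). Leaving out CKO array 3 left 1 gene of the list called, lower. The fetal globin list had 1 call among 4, the erythroid factor Klf1, which fell by 1.56 and was not called without CKO array 3, and the embryonic globins Hbb-y, Hbb-bh1 and Hba-x were not tested.

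Markers of growth and of other cells moved in the same livers as Afp and Igf2bp3, and their part in those results was not tested. Of 26 proliferation genes 21 were higher in Nrf1 CKO livers, led by Aurkb (at least 3.47-fold), Mcm5 (2.60), Cdc20 (2.58) and Foxm1 (2.50 on the log2 scale). Over all genes 7.99% were called higher there. The marker lists too were chosen with earlier results of these data known. Aurkb passed the filter only through the Nrf1 CKO group, so its test is not independent of its selection. The summed linear level of the list ran from 104 to 165 on the Nrf1 CKO arrays and from 41.8 to 56.1 on the Nrf1 control arrays. Of 17 stellate cell and fibroblast markers 12 were higher, with Col1a1 (2.21), Lum (1.75), Cygb (1.37) and Pdgfrb (1.17) first, and summed levels of 137 to 195 in CKO and 89.4 to 117 in control livers. Of 15 hepatocyte markers 9 were lower, among them Hpd (-1.45), Ass1 (-1.38), Tat (-1.33) and Tdo2 (-1.14), and the summed level ran from 2010 to 2980 in CKO and from 3370 to 4060 in control livers. Under quantile normalization 3 hepatocyte markers were called lower in place of 9. Without CKO array 3 the proliferation, stellate and hepatocyte counts were 15, 8 and 1, and with the slide as a block each was 0.

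Of 9 tested markers of bile duct cells and progenitors, Sox4 (1.60) and Anxa3 (1.48) were higher in Nrf1 CKO livers. The list summed to 16.4 to 45.9 in CKO and 11 to 16.3 in control livers, and Krt19 (0.29), Epcam (1.04) and Sox9 (0.21) did not pass. Sox4 lost its call under normexp correction (0.41, adjusted p = 0.151). Of 13 macrophage markers 4 were higher, Gpnmb (at least 13.3-fold), Trem2 (4.15), Marco (2.18) and Lyz2 (1.34), and Cd163 was lower (-1.50). Gpnmb also passed the filter only through the Nrf1 CKO group, so its test is not independent of its selection. The sum of the macrophage list was 98.7 to 306 in CKO and 71.3 to 132 in control livers. Of 11 endothelial markers 1 was called, Lyve1, which fell by 2.42, and under quantile normalization and under normexp correction 2 others were called higher. Their sum was 48.9 to 68.7 in CKO and 59.1 to 69.6 in control livers. Of the adipocyte list Pparg rose by 1.27 and Adipoq, Plin1, Lep, Cfd and Retn were not tested. Of the pancreas list Cela1 rose by 1.22, a call lost under quantile normalization (adjusted p = 0.0515), median scaling (0.0531) and normexp correction (0.286), and 7 of 11 genes, Prss1, Prss2 and Cpa1 among them, were not tested. The adipocyte list summed to 16.7 to 19.9 in CKO and 13.2 to 16.8 in control livers, and the pancreas list to 3.06 to 3.73 in CKO and 2.21 to 4.53 in control livers.

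Without CKO array 3 the bile duct list had 1 call and the macrophage list 2, all higher, and neither the adipocyte nor the pancreas list had any. Nrf2 KO livers had 0 calls in all 17 lists. Only 0.0621% of all genes were called there, so that 0 calls says little about the list genes. Keap1 KD livers, with 5.52% of all genes called, had Lum (-0.87), Trem2 (1.51), Lyve1 (1.09) and Cela1 (-1.27) in the cell marker lists, and 0 of 26 proliferation genes. Lum (adjusted p = 0.076), Lyve1 (0.0544) and Cela1 (0.225) lost these calls under quantile normalization, Lum (0.135) and Cela1 (0.132) under median scaling, and Lum (0.0904), Trem2 (0.066) and Cela1 (0.382) under normexp correction. Summed proliferation levels were 44.7 to 48.8 in Nrf2 KO and 48.5 to 64.9 in Nrf2 control livers, and 30.9 to 45.5 in Keap1 KD and 34.5 to 41.5 in Keap1 control livers.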

How the data were processed

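Total liver RNA was labelled with Cy3 and hybridised to Agilent arrays, 1 sample per array, per the labels' protocols. Per the file headers, Agilent Feature Extraction 10.7.3.1 made the deposited intensity values, background-subtracted within each array, for 45018 spots, 1639 of them controls. The authors' series table equalled them at all 810324 entries compared. Names came from RefSeq accessions, which named 64.9% of 41174 probes, so a symbol can differ from the array's own.

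Intensities were put on a log2 scale relative to each array's 75th percentile over non-control spots without outlier flags, and spots of a probe were averaged. A probe was tested if well above background on all 3 arrays of a group (23554 probes), and a gene was read from its brightest tested probe. limma 3.58.1 (R 4.3.3) fitted 6 group means over 18 arrays, with Benjamini-Hochberg adjustment over 17721 genes. The fit was also run on simulated arrays with known changes. These held no slide effects, so they do not bear on the slides here. A gene not above background in 1 group is given as an "at least" fold, the bright group's mean over the higher of the dim probe and the array's detection limit. Array number limits the precision.

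The members and the 17 gene lists were chosen with earlier results of these data known. The text names the members, the targeted genes, up to 4 called genes of a list per comparison, the members of the regulator and relative lists, and 3 genes most like each tested member. A few uncalled list genes were named after their values were seen. After each gene's group mean was subtracted, same-numbered mutant and control arrays of a line correlated at -0.359 to 0.147, above 0.1 in 3 of 9 pairs. They were not treated as pairs. Normexp correction (offset 50) used median signals. Alternatives covered scaling, background, filters, probes, variance, slide, scan day and left-out arrays. Testing each Igf2bp3 probe on its own and the differences within a slide were added after seeing the data. A few genes of these lists are not reported here.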

Additional observations from a re-analysis of the deposited data

Results flagged for a closer look

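The Afp effect of Nrf1 CKO exceeded that of Keap1 KD by 1.96 on the log2 scale (SE 0.53, adjusted p = 0.0401 by limma), which was picked out because the difference between the effects in these lines passed its own test. Afp was higher on 3 of 3 Nrf1 CKO arrays than on every Nrf1 control array, while the Keap1 KD and Keap1 control arrays overlapped. Under the alternatives the difference ran from 1.5 to 2.28 and its adjusted p from 0.0187 to 0.448.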

How the results depend on the processing

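Of 21 alternatives, the Afp difference in Nrf1 CKO livers kept its call in 20 (range 1.51 to 2.20) and lost it with the slide as a block (1.78, adjusted p = 0.218). The count of members called there was 1 in place of 2 under normexp correction, with no filter, with the line's arrays alone and with the replicate block, under which Igf2bp3 was 1.56 (adjusted p = 0.0537). The count was also 1 with probes above background on all arrays, a filter under which Igf2bp3 and Igf2 were not tested. It was 0 with the slide block and 1 to 2 with 1 array left out. The count was 0 in Nrf2 KO and Keap1 KD livers under all 21. Between the Nrf1 and Nrf2 effects the count was 1 under normexp correction, 2 under array weights and 0 to 1 with 1 array left out, in place of 0. Between the Nrf1 and Keap1 effects it was 0 under quantile normalization, no filter and the slide and scan day blocks, 2 under the intensity trend and array weights, and 0 to 2 with 1 array left out, in place of 1. Under median scaling that 1 call was Igf2bp3 (1.76, adjusted p = 0.0453), not Afp (1.56, 0.0775). Signs turned for uncalled values. Afp in Keap1 KD was 0.048 under quantile normalization, 0.27 under median scaling, 0.013 under normexp correction, 0.27 and 0.15 with slide and scan day blocks, and -0.35 to 0.32 with 1 array left out. With 1 array left out, Igf2 in Nrf2 KO ran from -0.36 to 0.11, Gpc3 from -0.35 to 0.30 in Nrf2 KO and -0.12 to 0.28 in Keap1 KD, and Igf2bp3 in Nrf2 KO from -0.31 to 0.28. Gpc3 was -0.02 in Nrf1 CKO with the slide block and 0.023 in Nrf2 KO under normexp correction. Igf2bp3 in Nrf2 KO was 0.012 under normexp correction, 0.41 as the mean of probes and 0.97 and 0.28 by its other probes, the first of which (A_52_P271232) gave -0.042 for the difference of Nrf1 and Nrf2 effects. The cause of these changes was not tested. Calls over all genes in Nrf1 CKO livers (3348) were 2117 with no filter, 8165 with array weights, 65 with the slide block and 939 to 4160 with 1 array left out. In Nrf2 KO livers (11) they were 22 under median scaling, 21 under the trend, 75 with weights, 5 with the replicate block, 6 with the line alone, 7 with the scan day block and as few as 6 with 1 array left out. In Keap1 KD livers (979) they were 555 under quantile normalization, 508 under normexp correction, 615 with no filter, 439 above background on all arrays, 248 with weights, 636 with the replicate block, 55 and 255 with the slide and scan day blocks, 52 with the line alone and 350 to 1048 with 1 array left out. Median scaling moved the median over all genes in Keap1 KD livers to 0.31, beside 0.00 as reported. Among the called list genes, Gc in Nrf1 CKO livers was the only one whose sign turned under the scalings, normexp correction, the slide block or the loss of CKO array 3. Dlk1 and the second Igf2 probe were too dim to test.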
